A study of Rattus norvegicus with 18 samples.

Results

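The genes described here drive a cell into mitosis and through it: the kinases and cyclins that start it, the kinetochore and checkpoint proteins that hold chromosomes to the spindle, the spindle motors and chromosome proteins, and the enzymes that end it. The list has 36 genes, and a gene was taken as measured where a probe carried its symbol alone in the arrays' annotation. On the larger of 2 array designs 30 of the 36 were measured, among 12198 genes with such a probe, and 29 passed the filter on low levels. Ccnb2, Cdc25c, Cenpe, Ndc80, Nuf2 and Tpx2 had no such probe, and Ttk was measured but did not pass. On the smaller design 14 of 6455 genes were members.

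The cells were ventricular cardiomyocytes of day 1 rats, purified on Percoll gradients and kept in cardiac medium for 24 h. Time zero dishes were then extracted with no further treatment. In the others the medium was replaced by 50% with human embryonic stem cell (hESC) medium that had been conditioned by stem cells or had not, with fetal bovine serum at 5% and horse serum at 10% in both, and RNA was taken at 24 h or 48 h. The larger design held 4 time zero arrays and 2 arrays of each of the 4 medium groups. Time zero dishes did not receive hESC medium, so a difference from time zero holds both the time in culture and the change of medium, which cannot be told apart. The title of the series asks whether stem cells secrete factors that make cardiomyocytes proliferate, and the comparison of the media at each time addresses it. The labels do not say that dishes came from separate cell preparations, so p-values measure the spread between these arrays, which may be technical.

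Mitosis begins when cyclin B and the kinase Cdk1 become active, helped by Plk1 and Aurora A. Kinetochores then bind spindle fibres, and the spindle checkpoint holds the anaphase promoting complex back until every chromosome is attached. Transcripts of these genes are made mainly late in the cell cycle, and heart muscle cells are known for leaving the cycle soon after birth.

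Promoters of such genes are known for the cell cycle genes homology region, CHR, a short element read by the DREAM and MuvB complexes, and for CCAAT boxes read by NF-Y. The sequences of 4 members whose arrays are described in full are shown, as examples of the letters counted over all members' promoters. They are the 120 bases before the annotated start of transcription, 5′ to 3′ in the direction of the gene, from RefSeq on GRCr8. Capitals mark TTTGAA or TTTAAA (CHR letters) and CCAAT, in either strand, so that TTTGAA may read TTCAAA and CCAAT may read ATTGG. Ccnb1 lies at chr2:33655226-33655345 on the minus strand, Cdk1 at chr20:19265173-19265292 on the plus strand, Hmmr at chr10:25665216-25665335 and Pttg1 at chr10:28406327-28406446, both on the minus strand.
Ccnb1: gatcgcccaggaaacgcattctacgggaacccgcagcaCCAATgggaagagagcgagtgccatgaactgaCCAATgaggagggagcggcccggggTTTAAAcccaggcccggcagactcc
Cdk1: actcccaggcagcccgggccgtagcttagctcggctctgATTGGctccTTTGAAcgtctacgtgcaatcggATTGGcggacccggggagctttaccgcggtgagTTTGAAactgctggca
Hmmr: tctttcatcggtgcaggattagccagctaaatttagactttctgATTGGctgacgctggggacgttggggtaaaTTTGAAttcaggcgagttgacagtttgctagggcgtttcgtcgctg
Pttg1: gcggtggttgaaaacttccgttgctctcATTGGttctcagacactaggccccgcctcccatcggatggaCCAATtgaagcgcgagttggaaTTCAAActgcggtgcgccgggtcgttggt

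In each of these 4 a CHR match lay closer to the start than every CCAAT match. Counting the base before the start as -1, the nearest CHR match began at -25 in Ccnb1, -16 in Cdk1, -46 in Hmmr and -29 in Pttg1. The nearest CCAAT match began at -50, -49, -76 and -51 in the same order. The 4 were chosen among members with a CHR match near the start, and the order did not hold for every member. In Cdc20 the nearest CCAAT match began at -41 and the CHR match at -51, and in Mki67 at -94 and -99. Over all members the order was not counted.

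RefSeq gave a promoter for 31 of the 36 members (not for Ccna2, Foxm1, Pbk, Tpx2 and Ube2c), with 250 bases before and 50 after the start. TTTGAA or TTTAAA was found in 29 of the 31 (93.5%), against 26.1% of 19005 promoters of protein-coding genes. Between 75 bases before and 50 after the start it was found in 26 of the 31 (83.9%), against 9.53% of the 19005. CCAAT was found in 24 of the 31 (77.4%), against 38.4%. The motifs were counted independently of one another on both strands. Nek2, a centrosome kinase, and Cdc25b, a phosphatase that activates Cdk1, were the members with neither CHR form in the 300 bases, and Cenpa, Mki67 and Espl1 held one only farther from the start. A match is a description of letters and not a binding site.

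Levels below are intensity after each array was scaled to one common median, and are not compared between genes, since probes differ in brightness. Where paired values are given as one against the other, or in turn, unconditioned medium comes first. Before scaling the medians of the 12 arrays ran from 70.3 to 143.6. Replicates 4 and 5 of time zero and replicate 2 of unconditioned medium at 48 h stood apart from the other 9 arrays. Their 75th percentile was 22.4 to 25.7 times their 25th, against 38.7 to 47.8 on the others, and they had the highest values on the first principal component, which held 35.1% of the variance. Results are therefore given with and without these 3 arrays. Leaving them out leaves unconditioned medium at 48 h with replicate 3 alone, the array with the highest member median, which is then assumed to vary like the other groups. The cells carried cardiomyocyte transcripts: all 14 measured markers of 16 passed the filter, and Tnnt2, a protein of the heart's thin filament, lay between 15052 and 36744 on the 12 arrays. Changes are log2 differences between group means, relative to the median over the 23694 probes tested in the same comparison, with their standard error (SE). That median itself was at most 0.19 from 0. Tests are limma's, adjusted over all these probes (Benjamini-Hochberg), and rose and fell are used for an adjusted p under 0.05.

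The mitotic genes as a set lay higher at 24 h than at time zero and higher again at 48 h, and at both times the unconditioned arrays lay above the conditioned ones. Taken as the median over the 29 tested members, relative to all probes and to the time zero mean, the 4 time zero arrays lay between -0.10 and 0.14 (log2). Conditioned medium at 24 h gave 0.21 and 0.29 and unconditioned medium 0.66 and 0.69. At 48 h the conditioned arrays gave 1.23 and 1.37 and the unconditioned arrays 1.53 and 1.89. No 2 groups overlapped on this measure. By group mean, 26 of the 29 members were lowest at time zero, 19 were highest in unconditioned medium at 48 h and 7 in conditioned medium at 48 h. The full order of time zero, conditioned 24 h, unconditioned 24 h, conditioned 48 h and unconditioned 48 h held for 18 of the 29. That order was taken from the medians above. Neither it nor the counts of lowest and highest groups were set against all probes. The medians are a description, and the tests of single members follow.

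**Figure D1:**
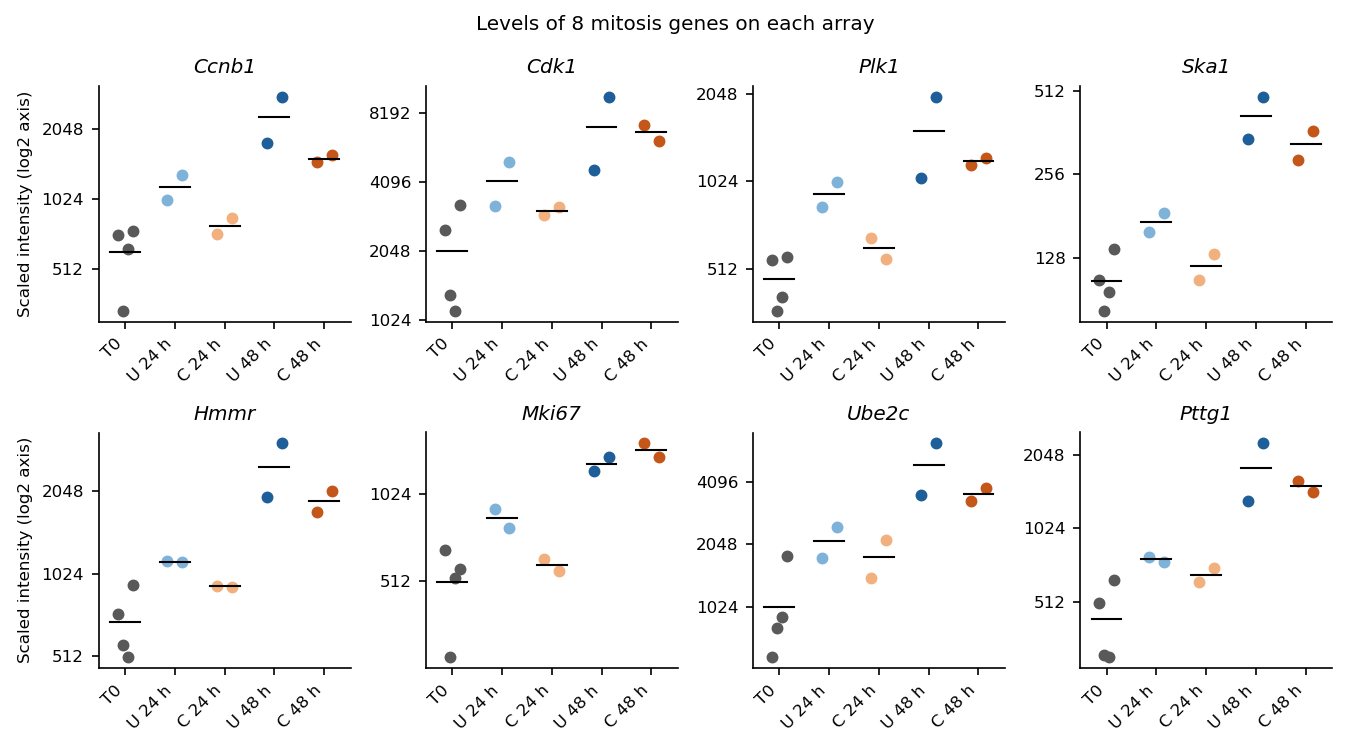
Scaled intensity (log2 axis) of 8 members on each of the 12 larger arrays, with T0 for time zero, U for unconditioned and C for conditioned medium. Points are arrays and black lines are group means of the scaled intensity, not of its log2. For Ccnb1, Pttg1 and Hmmr all 4 arrays at 48 h lie above every time zero array, and replicate 3 of unconditioned medium at 48 h is the highest array for 7 of the 8 genes.

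At 48 h in unconditioned medium 22 of the 29 tested members rose from time zero and none fell. Of all probes 2.88% were called, 1.98% higher and 0.899% lower. In conditioned medium 17 of 29 rose and none fell, and of all probes 4.88% were called, 3.54% higher. The median change was 1.71 in unconditioned and 1.34 in conditioned medium. All 17 genes that rose in conditioned medium were among the 22, and the other 5 were Aurka, Pbk, Kif11, Tacc3 and Top2a. The 2 comparisons share their time zero arrays. On 26 of the 29 members both arrays of a medium at 48 h lay above all 4 time zero arrays, in unconditioned medium (8.28% of all probes) as in conditioned medium (22.4%). No member had both arrays below time zero, where 6.29% and 7.44% of all probes did.

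Of the 11 tested genes of mitotic entry, 7 rose in unconditioned and 5 under conditioned medium at 48 h. Ccnb1 encodes cyclin B1, the partner of Cdk1 (probe 229077). It read 719, 338, 621 and 745 on the time zero arrays, 1012 and 1291 in unconditioned and 726 and 844 under conditioned medium at 24 h. At 48 h it read 1774 and 2816 in unconditioned and 1474 and 1574 in conditioned medium. The 48 h media did not overlap each other or time zero. The change from time zero was 1.94 ± 0.34 (SE) in unconditioned medium, or 3.83-fold (limma adjusted p = 0.00386), and 1.23 ± 0.34 in conditioned medium, or 2.35-fold (adjusted p = 0.047).

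Cdk1, the kinase itself (probe 55112), read 2523, 1314, 1117 and 3231 on the time zero arrays. It read 3220.4 and 4985 in unconditioned and 2931 and 3181 under conditioned medium at 24 h, and 4605 and 9620.4 against 7254 and 6194 at 48 h. Here the conditioned arrays lay between the 2 unconditioned ones at 48 h, and both media lay above time zero. Cdk1 rose by 1.83 ± 0.42 in unconditioned and 1.69 ± 0.42 in conditioned medium (limma adjusted p = 0.0218 and 0.0244). A second Cdk1 probe gave 1.87 and 1.17.

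Plk1, a kinase that acts from centrosome maturation to cytokinesis (probe 212003), read 552, 368, 409.9 and 564 at time zero. At 24 h it read 834 and 1018 in unconditioned and 654 and 555 in conditioned medium, and at 48 h 1054 and 2000.5 against 1169.6 and 1232. Unconditioned medium was above time zero on every array at both times, and conditioned medium only at 48 h. Plk1 rose 3.09-fold and 2.30-fold at 48 h in unconditioned and conditioned medium (limma adjusted p = 0.00781 and 0.0367).

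Pbk, a mitotic kinase also known as TOPK (probe 31038), read 888, 409, 449 and 773 at time zero and 1322 and 1565 in unconditioned medium at 24 h. The conditioned arrays at 24 h, 826 and 704, stayed within the time zero range. At 48 h unconditioned medium gave 1811 and 2966 and conditioned medium 1445 and 1315. Pbk rose in unconditioned medium at 48 h, by 1.95 ± 0.35 (limma adjusted p = 0.00413). In conditioned medium its change was 1.05 ± 0.35 (adjusted p = 0.103).

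Cks1b and Cks2 encode the small subunits that bind Cdk1. Cks2 (probe 299102) read 163, 122, 160.1 and 229 at time zero, and every later array was higher. It read 507 and 267 in unconditioned and 332 and 417 under conditioned medium at 24 h, then 472 and 394 against 645 and 519.9 at 48 h. Cks2 rose by 1.38 ± 0.34 in unconditioned and 1.66 ± 0.34 under conditioned medium at 48 h (limma adjusted p = 0.0312 and 0.00638). Cks1b (probe 127091) read 2188, 1217, 1666 and 2568 at time zero and 2767 and 2721 in unconditioned against 3156 and 3350.1 in conditioned medium at 24 h. It read 2596 and 3461 against 3334 and 2955 at 48 h, and its changes of 0.69 and 0.61 there did not pass (adjusted p = 0.354 and 0.359). All later Cks1b arrays lay above time zero, by a smaller step than Cks2.

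Of the other entry genes, Ccna2 (cyclin A2) rose in both media at 48 h, by 1.71 and 1.40. Aurka (Aurora A, which matures centrosomes) rose in unconditioned medium, by 1.60, and its change of 1.17 in conditioned medium had an adjusted p of 0.0536. Foxm1, a transcription factor of late cell cycle genes, had changes of 0.85 and 0.93 (adjusted p = 0.173 and 0.0859). Cdc25b and Nek2 had changes of 0.16 and 0.03 in unconditioned and -0.33 and -0.21 in conditioned medium. Both of these were dim and uneven: Nek2 ran from 2.98 to 74.4 over the 12 arrays and Cdc25b from 21.8 to 188.

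All kinetochore and checkpoint genes that were tested had positive changes at 48 h, and 5 of 6 rose in each medium. Bub1 and Bub1b are checkpoint kinases at the kinetochore. Bub1 (probe 136031) read 258, 141, 209 and 491 at time zero and 499 and 717 in unconditioned against 430.4 and 486 in conditioned medium at 24 h. Its 48 h levels were 684 and 1543 against 978 and 931. It rose 4.11-fold in unconditioned and 3.44-fold in conditioned medium (limma adjusted p = 0.0112 and 0.0187), and Bub1b rose by 1.83 and 1.48. Replicate 6 of time zero was the highest of its group for both, 491 for Bub1 and 230.4 for Bub1b.

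Mad2l1, the checkpoint protein that binds Cdc20 (probe 271076), read 93.2, 68.1, 107 and 126 at time zero and was higher on every later array. The values were 191 and 153 in unconditioned and 229.8 and 207 under conditioned medium at 24 h, and 312 and 338 against 380.3 and 386 at 48 h. It is the only tested member for which both conditioned arrays lay above both unconditioned ones at each time. Mad2l1 rose by 1.74 ± 0.32 and 1.83 ± 0.32 (limma adjusted p = 0.00429 and 0.00166). A second, dimmer Mad2l1 probe gave 0.48 ± 0.55 and 0.14 ± 0.55, so the 2 probes disagree on the size.

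Ska1, which couples kinetochores to microtubules (probe 324071), had the smallest adjusted p of all members in unconditioned medium. It read 106, 82.1, 95.8 and 137 at time zero, 159 and 185 in unconditioned and 106 and 132 under conditioned medium at 24 h. At 48 h it read 344 and 489 against 289 and 369, and the media overlapped. Ska1 rose by 1.98 ± 0.32 and 1.49 ± 0.32 (limma adjusted p = 0.00222 and 0.00986).

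Cenpf, a large kinetochore protein that gathers late in the cycle (probe 261002), read 597, 426, 633 and 753 at time zero. It read 709.5 and 1088 in unconditioned and 625 and 719 under conditioned medium at 24 h, and 1432 and 2539 against 1449 and 1744 at 48 h. The 24 h arrays met the time zero range and the 48 h arrays did not. Cenpf rose by 1.68 ± 0.33 and 1.27 ± 0.33 (limma adjusted p = 0.00783 and 0.0329). Cenpa, the histone H3 variant of centromeres, had changes of 1.51 and 1.64 with an SE of 0.57 (adjusted p = 0.21 and 0.114). Ttk, the kinase MPS1 that starts the checkpoint, lay between 7.68e-05 and 25.4 on the 12 arrays, with 5 of the 12 below 2, and was not tested.

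Among the spindle and chromosome genes 7 of 8 rose in unconditioned medium at 48 h and 4 of 8 in conditioned medium. Kif11, the motor that pushes spindle poles apart (probe 78009), read 206, 158, 127 and 236 at time zero and 259 and 339.5 in unconditioned medium at 24 h. It read 167 and 229 in conditioned medium at 24 h, inside the time zero range. Its 48 h levels were 454 and 900.0 in unconditioned and 405 and 380.2 in conditioned medium. Kif11 rose by 1.84 ± 0.35 in unconditioned medium (limma adjusted p = 0.00609), and in conditioned medium the change was 0.99 ± 0.35 (adjusted p = 0.123).

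Nusap1, which bundles spindle microtubules (probe 324085), read 157, 96.3, 119.2 and 183 at time zero. At 24 h it read 277 and 315 in unconditioned and 148 and 179 in conditioned medium, so that only unconditioned medium was above time zero. At 48 h it read 398 and 705 against 326 and 378. Nusap1 rose 3.90-fold and 2.33-fold (limma adjusted p = 0.00311 and 0.0457).

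Hmmr, a spindle assembly protein that is also a hyaluronan receptor (probe 73095), read 730.4, 562, 506 and 933 at time zero. It read 1136 and 1132 in unconditioned against 926 and 914 in conditioned medium at 24 h, and 1954 and 3067 against 1727 and 2060.1 at 48 h. Unconditioned arrays were above time zero at both times, and conditioned arrays at 48 h alone. Hmmr rose by 1.87 ± 0.32 and 1.34 ± 0.32 (limma adjusted p = 0.00276 and 0.0179).

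Tacc3, which holds microtubules together in the spindle (probe 293022), read 896, 579.9, 599.9 and 1028 at time zero, and 1249.8 and 1448 in unconditioned against 909 and 1009 in conditioned medium at 24 h. Its 48 h levels were 1873 and 2763 against 1609.6 and 1838. Top2a, the topoisomerase that untangles chromosomes (probe 229035), read 2394, 1013, 1516 and 2323 at time zero, and 2886 and 3218 against 2065 and 2078 at 24 h. At 48 h it read 4299 and 6104 against 3820.5 and 4054. For both genes the media did not overlap at either time. Both rose in unconditioned medium, Tacc3 by 1.58 and Top2a by 1.57 (limma adjusted p = 0.00877 and 0.0178), and had changes of 1.03 and 1.04 in conditioned medium (adjusted p = 0.0718 and 0.101).

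Mki67 encodes Ki-67, a coat protein of mitotic chromosomes used as a proliferation marker (probe 241015). It read 658, 279, 527 and 562 at time zero and 908 and 778 in unconditioned against 611 and 553 in conditioned medium at 24 h. Its 48 h levels were 1225 and 1369.8 against 1529 and 1373, so the order of the media at 48 h was the opposite of that at 24 h. Mki67 rose 2.66-fold in unconditioned and 2.68-fold in conditioned medium (limma adjusted p = 0.0253 and 0.017). Kif4a, a motor of mitotic chromosomes, rose by 1.80 and 1.503. Kif2c, which takes microtubules apart at centromeres, had changes of 0.27 and 0.22 and overlapped time zero in both media.

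Of the 4 genes of mitotic exit 3 rose in each medium at 48 h. Ube2c, the ubiquitin-conjugating enzyme of the anaphase promoting complex (probe 274098), read 584, 812, 911 and 1801 at time zero. It read 1759 and 2491 in unconditioned and 1410.0 and 2154 under conditioned medium at 24 h, and 3545 and 6297 against 3328 and 3832 at 48 h. Its change in unconditioned medium was the largest of the 29 tested members, 2.32 ± 0.40 or 4.99-fold (limma adjusted p = 0.003). In conditioned medium it rose 3.40-fold (adjusted p = 0.0135).

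Pttg1 encodes securin, which keeps separase inactive until anaphase (probe 188097), and Espl1 encodes separase (probe 76020). Pttg1 read 508, 310.1, 304 and 626 at time zero, 778 and 748 in unconditioned and 618 and 702 under conditioned medium at 24 h, and 1318 and 2278 against 1594 and 1441 at 48 h. It rose by 2.05 ± 0.34 and 1.70 ± 0.34 (limma adjusted p = 0.00273 and 0.00616). Espl1 read 132, 59.5, 80.6 and 44.7 at time zero, and 164 and 185 against 101 and 62.9 at 24 h. At 48 h it read 167 and 389 against 279.9 and 266, and it rose by 1.79 ± 0.44 and 1.74 ± 0.44 (adjusted p = 0.0315 and 0.0266). The inhibitor and its target both rose in both media. Cdc20, the activator of the anaphase promoting complex, had a change of 1.35 in each (adjusted p = 0.0983 and 0.0677).

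**Figure D2:**
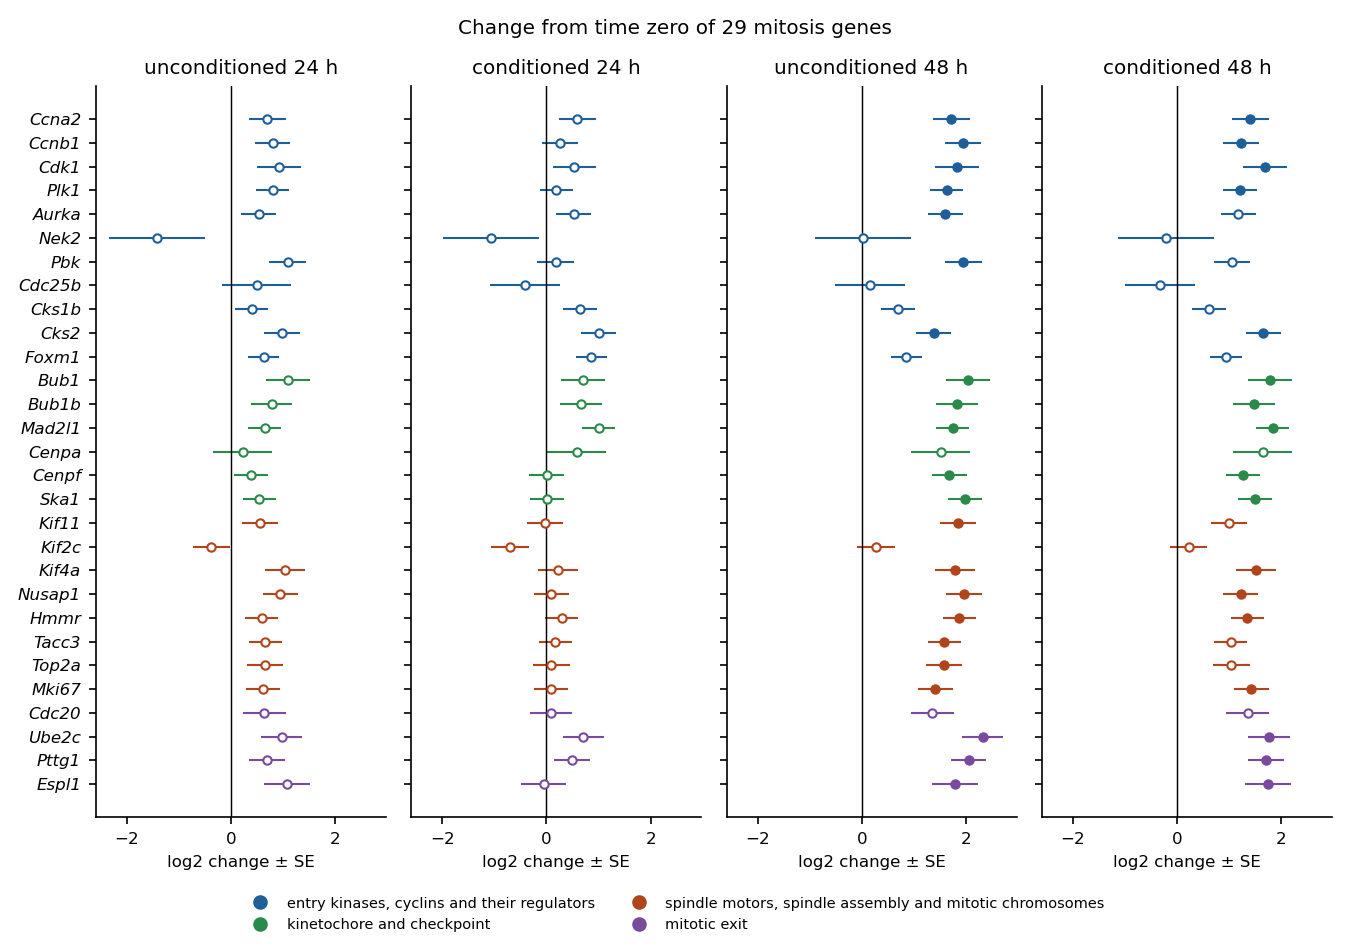
Change from time zero (log2, points) with its SE (bars) of the 29 tested members in the 4 medium groups, relative to all probes. Filled points passed an adjusted p of 0.05 and colours are roles. At 48 h 22 points are filled in unconditioned and 17 in conditioned medium. No point is filled at 24 h, and at 48 h Nek2, Cdc25b and Kif2c lie between -0.33 and 0.27.

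The counts at 48 h depended on single arrays and on the fit. The calls lost most often were Cks2 in unconditioned medium and Ccnb1, Nusap1 and Plk1 in conditioned medium. Each was lost in 8 of the 12 fits with 1 array left out. For these fits the share of all probes called is not given. Whether calls over all probes fell as well cannot be read from the counts. Without replicate 3 of unconditioned medium at 48 h 8 members rose in that medium. In conditioned medium 8 rose without replicate 3 of time zero, 11 without replicate 5 of time zero, and none without replicate 2 or without replicate 3 of conditioned medium at 48 h. The last 2 settings leave a single array that is assumed to vary like the other groups, and the median over members stayed between 1.23 and 1.37 when each of the 12 arrays was left out. Without the 3 arrays that stood apart 23 members rose in unconditioned (3.88% of all probes) and 24 in conditioned medium (9.16%), where the unconditioned count rests on replicate 3 alone. With only the groups compared 3 were called in unconditioned and 10 in conditioned medium (0.679% and 3.41% of all probes), and with no filter 12 and 9 of 30 (0.931% and 2.52%). With both designs fitted together 8 and 9 of the 12 shared members were called (10.1% and 12.7%).

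Markers of other cell types moved at the same time. Of 8 measured endothelial markers, out of 10 listed, Tek, Vwf, Pecam1 and Tie1 rose in unconditioned medium at 48 h, by 2.91, 2.28, 1.64 and 1.36, and Kdr fell by 2.15. Tek, Vwf and Tie1 rose in conditioned medium too. The summed level of the 8 was 1219.7 to 1822 at time zero, 2406 to 3773 in unconditioned and 3125 to 3283 under conditioned medium at 48 h. The level of Tek went from 45.8 to 93.7 at time zero to 430.04 to 723 in unconditioned and 516 to 520.3 under conditioned medium at 48 h, which do not overlap time zero.

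Of 11 measured fibroblast markers 6 were tested. Col1a1, Thy1 and Postn rose in unconditioned medium at 48 h, by 1.52, 1.52 and 1.46, and Fn1 in conditioned medium, by 2.28. The summed level of the 11 was 3849 to 6999 at time zero, 9009.7 to 14608 in unconditioned and 16491 to 16716 under conditioned medium at 48 h. A sum is weighted to the brighter probes. The median over the 6 tested markers, relative to all probes and to time zero, had the opposite order of the media at 48 h. It was 0.95 and 1.24 (log2) on the unconditioned and 0.67 and 0.76 on the conditioned arrays. Fbln1 was at most 0.000138 on every array, and Dcn, Lum, Pdgfra and Tcf21 did not pass the filter. Of 9 smooth muscle and pericyte markers 7 were tested. Cspg4 and Cnn1 rose in both media and Myh11 in unconditioned medium, and the summed level went from 18322 to 32568 at time zero to 33732 to 45399 and 47612 to 49794 at 48 h.

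Of 9 leukocyte markers 6 were tested. Cd14 rose in unconditioned medium, Cd74 fell in conditioned medium, where both of its arrays were at the floor and the size is not given, and Ptprc and Lyz2 did not pass the filter. Summed levels of the 9 were 1044 to 1593 at time zero, 1271 to 2061 in unconditioned and 986.6 to 1019 under conditioned medium at 48 h. The 3 measured erythroid markers summed to 117 to 802 at time zero and to 101 to 442 at 48 h, and the 1 that was tested did not pass. Of the 14 cardiomyocyte markers none rose, Myl7 fell by 1.70 in conditioned medium, and the summed level was 160890 to 323300 at time zero and 197650 to 272430 at 48 h over both media. The part of these cell types in the change of the mitotic genes was not tested. In RNA from a whole dish more dividing cells and more of a transcript per cell cannot be told apart.

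**Figure D3:**
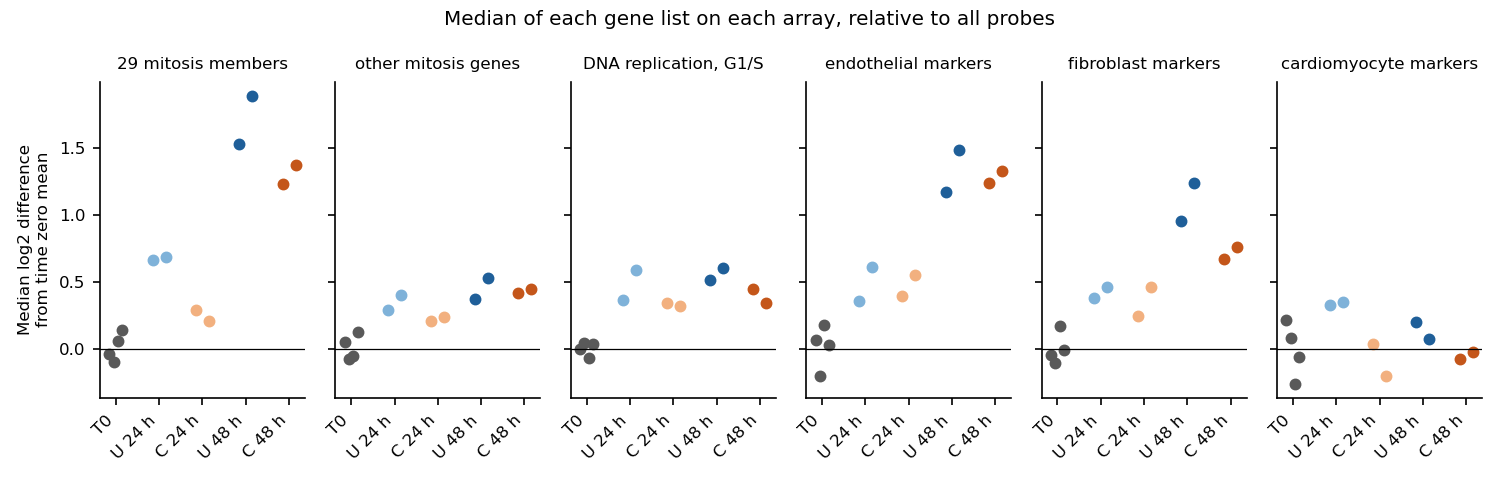
Median log2 difference from the time zero mean on each of the 12 arrays, relative to all probes, for the 29 members and 5 other lists (T0 time zero, U unconditioned, C conditioned). The members reach 1.23 to 1.89 at 48 h, the endothelial and fibroblast markers also lie above their time zero arrays there, and the cardiomyocyte markers lie around 0.

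Other genes of the same machinery were read from lists outside the 36. Of 82 tested genes of the kinetochore, entry regulation, the anaphase promoting complex, condensin and cohesin, and the spindle, 15 rose in unconditioned medium at 48 h and 9 in conditioned medium, with medians of 0.45 and 0.46. Over all probes 1.98% rose in unconditioned and 3.54% in conditioned medium. Of 19 other kinetochore genes 5 and 3 rose, with Cenpw, Cenpu and Cenpi in both media. Of 22 other spindle genes 8 and 6 rose, led by Dlgap5, a spindle assembly protein, at 1.94 and 1.41. None of the 13 subunits of the anaphase promoting complex and none of 15 other entry regulators rose in either medium. For lists this short that is near the share over all probes. Of 13 condensin and cohesin genes Smc4 and Ncaph rose in unconditioned medium.

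Of 11 tested chromosomal passengers and cytokinesis genes 8 rose in unconditioned and 6 in conditioned medium, with medians of 1.63 and 1.30. Cep55, which completes the cut between daughter cells, rose by 2.24 and 1.69, and Kif20a, a motor of the central spindle, by 2.24 and 1.48. Of 28 genes of DNA replication and the G1/S step 3 and 4 rose, with medians of 0.47 and 0.39. They were Uhrf1, Rrm2 and Mcm5 in both media and Gmnn in conditioned medium. Among 7 tested inhibitors of cyclin-dependent kinases and pocket proteins Cdkn2b, which encodes p15, rose in all 4 medium groups against time zero, with 1 of its 4 time zero arrays at the floor and no size given. Cdkn2c, which encodes p18, rose by 1.51 and Cdkn1c, which encodes p57, fell by 1.93 in unconditioned medium at 48 h.

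At 24 h no member passed the test against time zero in either medium. In unconditioned medium 27 of 29 had positive changes with a median of 0.65, and in conditioned medium 24 of 29 with a median of 0.21. Over all probes 0.536% (0.0971% lower) and 2.41% were called. At an unadjusted p under 0.05 there were 10 members in unconditioned medium (7.8% of all probes) and 3 in conditioned medium (13% of all probes). The 10 were Ccnb1, Cdk1, Plk1, Pbk, Cks2, Bub1, Kif4a, Nusap1, Ube2c and Espl1, with changes from 0.79 to 1.09. The 3 were Cks2, Foxm1 and Mad2l1, with 1.00, 0.86 and 1.00.

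On the arrays themselves, both unconditioned arrays at 24 h lay above all 4 time zero arrays for 20 of 29 members, against 13% of all probes, and for none lay below, against 3.22%. Both conditioned arrays did so for 5 members, Aurka, Cks1b, Cks2, Foxm1 and Mad2l1, against 19.3% of all probes, and both lay below for Kif2c (5.97%). The spindle genes had a median of 0.63 in unconditioned and 0.09 under conditioned medium at 24 h, while the kinetochore genes had 0.59 and 0.62. With quantile normalization Plk1, Pbk and Tacc3 rose in unconditioned medium at 24 h (1.63% of all probes rose) and Mad2l1 in conditioned medium (4.61%). Without the 3 arrays that stood apart Plk1 and Pbk rose in unconditioned (2.02%) and Mad2l1 in conditioned medium (5.04%).

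From 24 h to 48 h, 28 of 29 members had positive changes in each medium, with medians of 0.96 in unconditioned and 1.00 in conditioned medium. No member passed the test, as 0% and 0.00422% of all probes did. In conditioned medium 23 members were called with only the groups compared (6.05% of all probes), 24 with array weights (6.32%) and 8 without the 3 arrays that stood apart (0.363%). In unconditioned medium 5 were called with quantile normalization (0.122%) and 2 without the 3 arrays (0.249%). At an unadjusted p under 0.05 there were 16 members in unconditioned (4.65% of all probes) and 20 in conditioned medium (2.52%). Averaging the media at each time, a comparison added after the data were seen, gave a median of 1.01 and 24 of 29 members at an unadjusted p under 0.05, against 4.47% of all probes. Ska1 had the smallest adjusted p there, with a change of 1.45 ± 0.26 (limma adjusted p = 0.099), and 0.0211% of all probes were called, 0.0127% higher and 0.00844% lower.

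In unconditioned medium both 48 h arrays lay above both 24 h arrays for 19 members (8.82% of all probes, with 21.4% below), and in conditioned medium for 26 (25.6%). For 18 members all 4 arrays at 48 h lay above all 4 at 24 h, against 1.73% of all probes. They included Ccnb1, Plk1, Mad2l1, Cenpf, Ska1, Hmmr, Mki67, Ube2c and Pttg1. Cdc25b, Cks1b and Foxm1 had the smallest steps, of -0.13, 0.13 and 0.14. With quantile normalization 11 members rose over both media, against 0.333% of all probes, led by Hmmr at 1.20 ± 0.12 (limma adjusted p = 0.000846). Without the 3 arrays that stood apart 19 rose, against 0.895%.

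The comparison of the media asks what stem cell conditioning added. No member was called higher or lower in conditioned than in unconditioned medium at 24 h, at 48 h or over both times, while 0.241%, 0.0886% and 0.848% of all probes were called. Over both times 0.511% were higher and 0.338% lower in conditioned medium, and at 48 h 0.0464% and 0.0422%. Most members lay lower in conditioned medium: 23 of 29 at 24 h, 25 of 29 at 48 h and 23 of 29 over both times, with medians of -0.40, -0.37 and -0.33. At an unadjusted p under 0.05 there were 4 members over both times, against 9.94% of all probes. They were Pbk, Nusap1, Kif11 and Ccnb1, all lower in conditioned medium.

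**Figure D4:**
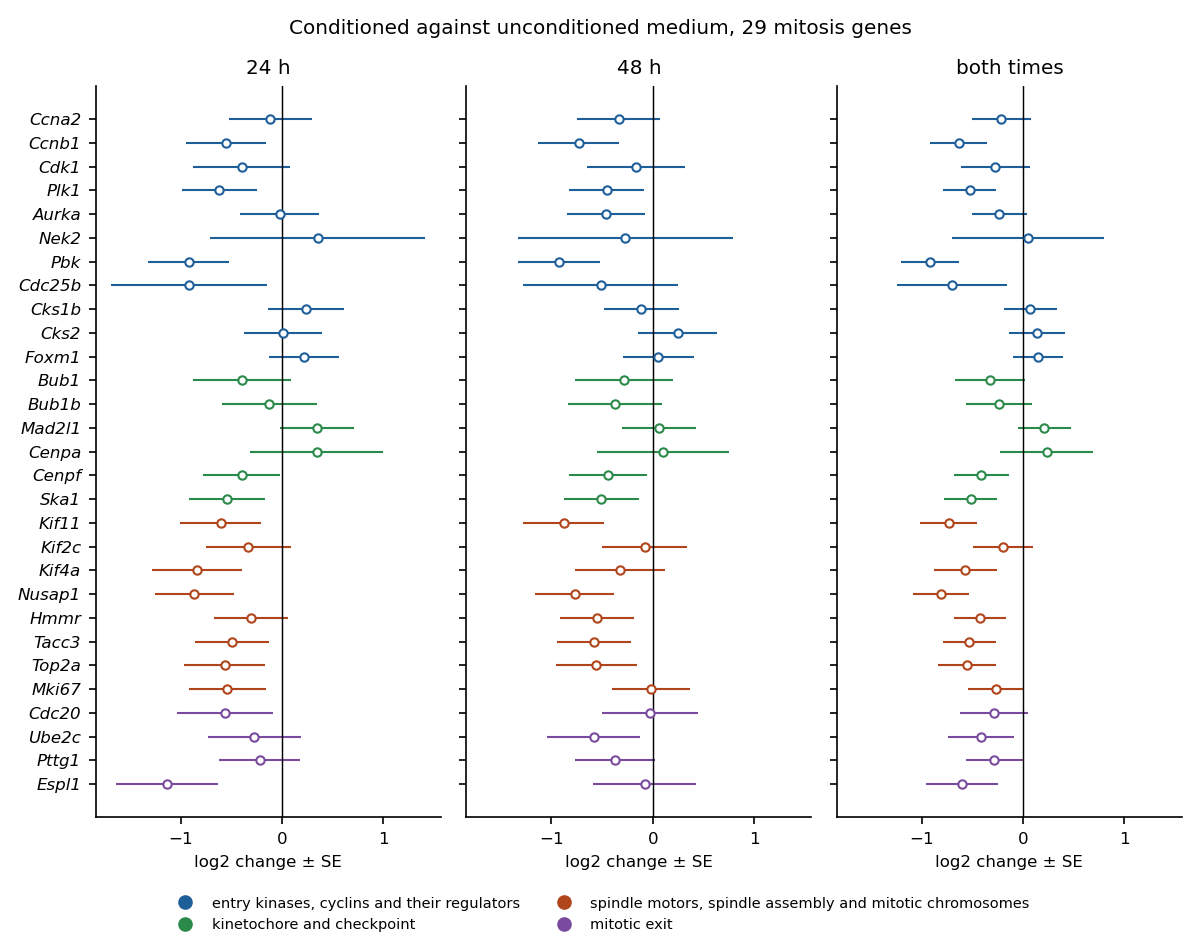
Conditioned minus unconditioned medium (log2, points) with its SE (bars) of the 29 tested members at 24 h, at 48 h and over both times, relative to all probes. No point passed an adjusted p of 0.05, all spindle and mitotic exit genes lie below 0 in each panel, and Cks2, Foxm1, Mad2l1 and Cenpa lie above it.

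By role, the spindle genes had the lowest median over both times, -0.54, with 8 of 8 below 0, and the mitotic exit genes had -0.35 with 4 of 4. The entry genes had -0.23 with 7 of 11 below 0 and the kinetochore genes -0.29 with 4 of 6. Pbk had the largest difference of all members, -0.92 ± 0.29 (limma adjusted p = 0.202), followed by Nusap1 at -0.81 ± 0.28 (adjusted p = 0.266) and Kif11 at -0.74 ± 0.28 (adjusted p = 0.361). Ccnb1 stood at -0.64 ± 0.28 and Espl1 at -0.60 ± 0.36 (adjusted p = 0.458 and 0.634). Plk1 was at -0.53, Cdk1 at -0.28 and Mki67 at -0.27 (adjusted p = 0.528, 0.856 and 0.817). On the other side were Mad2l1 at 0.21, Cenpa at 0.23, Foxm1 at 0.15, Cks2 at 0.14, Cks1b at 0.07 and Nek2 at 0.05, all within 1 SE of 0.

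The arrays show which members carry this. At 24 h both conditioned arrays lay below both unconditioned arrays for 17 of 29 members (22.4% of all probes) and above for 2, Cks1b and Mad2l1 (24.1%). At 48 h they lay below for 6 members, Ccnb1, Pbk, Kif11, Nusap1, Tacc3 and Top2a (11.6%), and above for 5, Cks2, Foxm1, Mad2l1, Cenpa and Mki67 (29.9%). These 48 h levels are before the shift of 0.18 that all probes showed toward conditioned medium, and relative to it Mki67 was at -0.02. For Ccnb1, Pbk, Kif11, Nusap1, Tacc3 and Top2a the media therefore kept apart at both times. The share of all probes that kept apart at both times, in either direction, was not counted. No member had all 4 conditioned arrays of both times below or above all 4 unconditioned ones, where 2.78% and 8.63% of all probes did.

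The calls between media depended on the normalization. With quantile normalization 6 members were lower in conditioned medium over both times, against 1.92% of all probes: Pbk at -0.98 ± 0.15 (limma adjusted p = 0.00308), Tacc3 at -0.59, Top2a at -0.64, Plk1 at -0.58, Hmmr at -0.49 and Ccnb1 at -0.70 (adjusted p = 0.0467). At 48 h Pbk was called, at -1.05 ± 0.21 (adjusted p = 0.0452), against 0.27% of all probes. Without the 3 arrays that stood apart 8 were lower over both times, against 3.29% of all probes, with unconditioned medium at 48 h held by replicate 3 alone. They were Ccnb1, Plk1, Pbk, Kif11, Kif4a, Nusap1, Tacc3 and Top2a, with Pbk at -0.99 ± 0.14 (adjusted p = 0.00212). No member was called higher in conditioned medium over both times with quantile normalization, where 1.89% of all probes were. For a list this short that is near the share over all probes.

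The difference between the medium effects at 48 h and at 24 h passed for no member and for no probe (limma), and at an unadjusted p under 0.05 for no member and for 423 probes (1.79%). Its median over members was -0.05, and 0.13 without centring on all probes. Espl1 had the largest value, 1.05 ± 0.71, from -1.14 at 24 h to -0.08 at 48 h. Of the 82 other mitosis genes none was called between the media over both times, and their median was -0.07. Fn1, a fibroblast matrix gene, rose by 1.61 in conditioned against unconditioned medium. Cd74, a leukocyte marker, fell, with 3 of the 4 conditioned arrays at the floor and no size given. The medians of the cardiomyocyte and fibroblast markers in that comparison were -0.27 and -0.36 and that of the endothelial markers 0.07. The part of these cells in the lower mitotic levels was not tested.

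The members varied together over the 12 arrays, as a description across arrays that share the time course and the media. Of 406 pairs 383 had a positive correlation of their log2 levels, and the median r was 0.81. Against the mean of the other members' standardised levels r was highest for Pttg1 (0.98), Tacc3 (0.98) and Hmmr (0.98) and lowest for Nek2 (-0.06), Cdc25b (0.11), Kif2c (0.38) and Foxm1 (0.62). Nek2 and Cdc25b were dim, with mean levels of 34.3 and 64.9 over the 12 arrays.

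Among members with a promoter sequence, 17 of 20 with a CHR match near the start rose in unconditioned medium at 48 h, and 2 of the 5 without one, Mki67 and Espl1. In conditioned medium 13 of 20 and 2 of 5 rose. The median change of members with and without a near match was 1.77 and 1.41 in unconditioned medium. It was 1.30 and 1.42 in conditioned medium, so there it was not higher with a match. The 5 without a match near the start include the dim Nek2 and Cdc25b. Among all tested genes with a promoter sequence, 10.7% of the 496 with such a match rose in unconditioned medium and 2.1% of the 7757 without one, members included. In conditioned medium the shares were 10.3% and 4.38%. Near matches with a CCAAT box in the 300 bases were found for 212 genes, of which 14.6% and 12.7% rose.

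Genes with a second probe on the larger design did not always give 1 answer on the medium. Over both times Plk1 had -0.53 with the probe used above and 0.08 with the other, Hmmr -0.42 and 0.48, Foxm1 0.15 and -0.30, Mad2l1 0.21 and -0.12, and Cks1b 0.07 and -0.19. These second probes had SEs of 0.52, 0.55, 0.38, 0.45 and 0.24 in that order, so each lay within 1 SE of 0. Those of Plk1, Hmmr and Mad2l1 were dimmer, with mean levels of 52.2, 72.3 and 46.5 against 868, 1304 and 216. Cdk1 (-0.28 and -0.46), Cenpf (-0.41 and -0.11) and Tacc3 (-0.53 and -0.25) kept their sign. At 48 h against time zero all 8 second probes had positive changes in both media, and Cdk1 in both media and Cenpf in conditioned medium passed with either probe (limma adjusted p of the second probes from 0.00335 to 0.0458). Tacc3 in conditioned medium passed with the second probe alone (1.81, adjusted p = 0.0321, against 1.03 and 0.0718).

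The smaller design held 2 time zero arrays and 1 array of each medium group, so its values have no replicate check in the media. The labels do not say whether its RNA came from the same dishes. Of 14 members 12 passed its filter, Plk1 and Kif2c did not. Differences on it are log2 and relative to the median of its probes that passed. At 48 h all 12 differences from time zero were above 0 in both media. Their medians were 1.62 in unconditioned and 1.32 in conditioned medium, beside 1.63 and 1.37 for the same 12 genes on the larger design. In level, Cks1b and Cdc25b in conditioned medium at 48 h were below both time zero arrays. Cks1b read 2187 against 2252 and 2930.5, and Cdc25b 65.1 against 65.7 and 80.1. Espl1, at 208, was within its time zero range. At 24 h 12 and 10 of 12 differences were above 0, with medians of 0.60 and 0.38. Between the media over both times 7 of 12 were below 0 with a median of -0.20, and 8 of the same 12 on the larger design with -0.27. The sign differed for Cdk1 (0.86 on the smaller design, -0.28 on the larger), Tacc3 (0.30, -0.53) and Mki67 (0.03, -0.27). It also differed for Cks1b (-0.38, 0.07) and Mad2l1 (-0.30, 0.21), and the other genes had the same sign on both designs.

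Single genes on the smaller design show both sides of this. Hmmr read 1248 and 1184 at time zero, 1797 in unconditioned and 1091 under conditioned medium at 24 h, and 5020.4 and 2331 at 48 h. Ccna2 read 1191 and 1207, then 2187 and 1128, then 4857 and 2198 in the same order. The conditioned array was under the unconditioned one at both times for both genes. All probes of the smaller design shifted too, by -0.25 and -0.26 (log2) in conditioned medium against time zero at 24 h and 48 h, and by -0.38 between the media at 48 h. Relative to these shifts Hmmr and Ccna2 were at 0.09 and 0.16 in conditioned medium at 24 h, although their levels were under time zero, and at -0.73 and -0.77 between the media at 48 h. Mki67 read 540.1 and 389 at time zero, 717 and 550.0 at 24 h and 1316 and 1149 at 48 h, and relative to the shift its difference between the media at 48 h was 0.18, of the opposite sign to its levels. Foxm1 was higher in conditioned medium, with 229 and 205 at time zero, 282 in unconditioned and 738 under conditioned medium at 24 h, and 344 and 805 at 48 h. Espl1 read 6844 on the unconditioned array at 24 h and at most 505 on the other 5 arrays, so its difference between the media there, -5.82, rests on that array.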

How the data were processed

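RNA of 18 samples (12 arrays of the larger CodeLink design, 6 of the smaller) was extracted with Trizol LS and labelled with biotin, per the labels' protocols. The deposited values are linear intensity, 1 per probe and array. The scanner, the image software, the background correction and the normalization are not given in the sources used here. The number of arrays limits the precision.

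The 2 tables were analysed apart. Each array was scaled to a common median, values under 0.05 of the median were raised to it, and log2 was taken of the deposited intensity. Probes above the 30th percentile of mean level were kept (23694 of 33849 on the larger table, 6934 of 9906 on the smaller). limma 3.58.1 in R 4.3.3 fitted all 5 groups at once (7 residual degrees of freedom) with a mean-variance trend, each contrast was centred on the median of all probes, and p was adjusted over all probes (Benjamini-Hochberg) at a threshold of 0.05. A gene was read from the probe with the highest mean log2 level among those that name 1 gene in the platform annotation, with symbols updated to RefSeq GRCr8. The smaller table, with 1 array in each medium group, was given no test. The fit was tested on simulated data. Figures were drawn with matplotlib 3.10.9.

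The members and lists were chosen with earlier results of these data known. Values on every array are given for the members with the smallest p or the brightest probe of each role between the media, for up to 4 called members a comparison, and for Ccnb1, Cdk1, Mki67 and Plk1. Of other lists up to 3 called genes are named, and all of them where 5 or fewer were called. The alternatives were quantile and 75th percentile scaling, other filters and floors, a pseudocount, no centring, averaged probes, only the groups compared, array weights, both tables together, and arrays left out. The comparison of 48 h with 24 h over both media was added after the data were seen.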

Additional observations from a re-analysis of the deposited data

Results flagged for a closer look

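Ttk, the checkpoint kinase MPS1, read 15.9 on replicate 3 of time zero and 7.68e-05 to 1.26 on the other 3 time zero arrays, which were all at the floor. The gap to the nearest array divided by the whole range was 1 on the floored log2 scale, above Dixon's 95% critical value for 4 arrays. With 3 arrays at the same floor the ratio is 1 for any value above it. Dixon's value therefore cannot judge this array. It was the 1 group marked of 30 groups of 4 arrays examined. Chance marks about 1 in 20, a rate that does not hold for values at the floor. Ttk did not pass the filter on low levels and entered no test.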

How the results depend on the processing

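No paired analysis was possible because the replicate numbers follow accession order and the labels pair no dishes. For the fits with 1 array left out, described last, the share of all probes called is not given. Whether calls over all probes fell there as well cannot be read. Counts of called members for the other settings follow, each with the share of all probes called under that setting. Over both times between the media, 0 as reported, they were 6 with quantile normalization (3.81%), 4 with 75th percentile scaling (3.9%), 1 with only the groups compared (3.03%), 2 with array weights (3.46%) and 8 without the 3 arrays that stood apart (7.98%). At 24 h they were 1 with only the groups compared (2.61%), 1 with array weights (3.53%) and 2 without the 3 arrays (3.47%), and at 48 h 1 with quantile normalization (0.629%) and 1 without the 3 arrays (1.43%). Against time zero at 24 h unconditioned medium had 3 (quantile, 2.21%), 4 (75th percentile, 2.08%), 1 of 12 (both tables, 2.62%) and 2 (without the 3 arrays, 2.82%). Conditioned medium had 1 (8.24%), 2 (8.21%), 3 of 12 (8.11%) and 1 (9.72%) in that order and 4 with array weights (12.8%). At 48 h unconditioned medium had 12 with no filter (0.931%), 3 with only the groups compared (0.679%) and 8 of 12 with both tables (10.1%), and conditioned medium 9 (2.52%), 10 (3.41%) and 9 of 12 (12.7%). From 24 h to 48 h unconditioned medium had 5 (quantile, 0.122%) and 2 (without the 3 arrays, 0.249%), and conditioned medium 23 (only the groups compared, 6.05%), 24 (array weights, 6.32%) and 8 (without the 3 arrays, 0.363%). Over both media there were 11 (quantile, 0.435%), 13 (75th percentile, 0.511%), 1 (filter at the 50th percentile, 0.0709%), 7 (only the groups compared, 0.359%), 12 (array weights, 0.523%), 5 of 12 (both tables, 0.737%) and 19 (without the 3 arrays, 1.25%). Without the 3 arrays, unconditioned medium at 48 h is a single array.

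Member medians moved between the media over both times to -0.49 without the 3 arrays, and at 48 h to -0.53 without them and -0.19 with no centring. With no centring they were 0.83 and 0.39 for unconditioned and conditioned medium at 24 h, 1.51 for conditioned medium at 48 h, 0.78 from 24 h to 48 h in unconditioned medium (1.10 without the 3 arrays) and 0.13 for the change of the medium effect with time. With the pseudocount they were 1.54 and 1.19 at 48 h. With both tables they were 0.35 for conditioned medium at 24 h, 0.85 from 24 h to 48 h in conditioned medium, 0.87 over both media and -0.23 for the change of the medium effect with time. Both tables together hold fewer members, and fewer samples enter where only the groups compared are fitted or arrays are left out. For the other settings the cause was not tested.

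With 1 array left out, called members ranged from 8 to 23 (unconditioned 48 h), 0 to 19 (conditioned 48 h) and 0 to 2 (48 h against 24 h over both media). Between the media there were none called in all 12. Medians ranged from -0.49 to -0.31 between the media over both times, -0.55 to -0.35 at 24 h and -0.53 to -0.28 at 48 h, from 1.53 to 1.89 for unconditioned medium at 48 h, 0.93 to 1.10 from 24 h to 48 h in unconditioned medium and 0.88 to 1.05 over both media. Between the media over both times the sign turned for Cdk1 (0.040, both tables), Cks1b (-0.0031 quantile, -0.050 probes averaged, -0.14 both tables), Hmmr (0.036, probes averaged), Mad2l1 (-0.023, both tables) and Cks2 (-0.04 without replicate 3 of unconditioned medium at 48 h, -0.11 without replicate 3 at 24 h, up to 0.40 with another array left out). None of these was called. Medians stayed above 0 at 48 h against time zero under every setting run.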
